A study of Mus musculus with 4 samples.

Results

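The NF-κB subunits, their feedback inhibitors and Tnf were followed as 10 genes among the 54532 genes of a count table from tumor-associated macrophages (TAMs). The genes were Nfkb1, Nfkb2, Rel, Rela and Relb (subunits), Nfkbia, Nfkbie, Nfkbiz and Tnfaip3 (inhibitors and regulators) and Tnf (a cytokine). They were chosen by symbol for their place in the pathway, with earlier results of these data known. All 10 passed the filter on low counts, as did 16451 genes in all. TAMs were taken with magnetic beads against CD11b and F4/80 from NB9464 tumors, which grow from a mouse neuroblastoma line, 40 days after the cells were implanted under the skin of untreated mice of the C57BL/6 background that were 4 to 6 weeks old at injection. SYK WT is represented by the libraries M7 and M8 and SYK KO by M9 and M10. The strains come from a cross of floxed Syk with Cre driven by lysozyme M, a promoter active in macrophages, monocytes and neutrophils. The sources do not say which of the 2 alleles the SYK WT mice carried or whether animals were pooled. The labels call the RNA source BMDMs (bone marrow-derived macrophages) in one place, and the series title names an adoptive transfer.

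NF-κB is a family of dimeric transcription factors that IκB proteins hold inactive in the cytoplasm. Signals from receptors such as those for TNF activate the IKK kinase complex, IκB is degraded, and the dimers enter the nucleus. Among the genes that they switch on are those of their own inhibitors, which makes the pathway a feedback loop, and in macrophages the cytokine and chemokine genes of inflammation.

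Total counts were between 20755886 and 23518045 per library, and the level of 3 counts taken as the limit of detection was between 0.109 and 0.163 CPM (counts relative to a normalized library total), a limit that covers counting error only. Syk, the gene that was to be deleted, was at 27.9 and 23.2 CPM in the SYK WT libraries and at 196 and 160 CPM in the libraries labelled SYK KO. Its log2 fold change was 2.80 (SE 0.194, adjusted p = 0.000674), which goes against the labels, so all directions below are for the libraries as labelled. With scaling to the macrophage markers described next, it was 0.05 (adjusted p = 0.925). With 1 value per gene, the counts do not show whether the floxed allele was deleted, and neither the SYK WT nor the SYK KO label was tested. All 10 macrophage markers (among them Adgre1, Csf1r and Cd68) were detected in every library, with a summed level of 915 to 1305 CPM in SYK WT and 6346 to 10398 CPM in the libraries labelled SYK KO. All 10 passed the test as higher, as did 22.7% of all genes tested. The 8 fibroblast markers summed to 12584 to 14472 CPM in SYK WT and to 4054 to 4960 CPM in the libraries labelled SYK KO, and 6 of them were lower, as were 16.7% of all genes tested. The part of these differences in the results below was not tested. In bulk RNA, fewer cells of a type and less RNA per cell cannot be told apart. Mitochondrial genes took 2.20% to 2.34% of the counts in SYK WT and 6.00% to 15.9% in the libraries labelled SYK KO, where M10 stood apart.

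NF-κB binds DNA at a short sequence, the κB site, and promoters were searched for it. RefSeq windows (GRCm38.p6, 250 bases before to 50 bases from the transcription start) were at hand for 7 of the 10 genes, Nfkb2, Rel, Rela, Nfkbia, Nfkbie, Tnfaip3 and Tnf. Those not matched were Nfkb1, Relb and Nfkbiz. The sites below are shown because each lies in a gene of the feedback loop described in the results. They read 5′ to 3′ on the strand of the gene, with the match in capitals.
Nfkbia, chr12:55492657-55492686, minus strand: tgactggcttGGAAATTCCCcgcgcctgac
Nfkbie, chr17:45555584-45555613, plus strand: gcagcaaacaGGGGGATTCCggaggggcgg
Tnfaip3, chr10:19015403-19015432, minus strand: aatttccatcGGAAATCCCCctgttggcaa
Rel, chr11:23771042-23771071, minus strand: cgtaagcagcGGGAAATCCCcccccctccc
Nfkb2, chr19:46304688-46304717, plus strand: ggatcgtcacGGGAATTCCCcccctcgggg
Nfkb2, second site of the same start, chr19:46304716-46304745, plus strand: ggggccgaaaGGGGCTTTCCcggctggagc
Tnf, chr17:35202201-35202229, minus strand, shorter motif: acgacggggaGGAGATTCCttgatgcctg
All but the Tnf match are to the κB consensus, searched on both strands. The consensus was in the windows of 5 of the 7 genes, against 9.55% of the 27025 genes with a window (8.46% of 32851 windows). The shorter motif GGNNNTTCC, searched on both strands and often lying within a consensus match, was in 6 of the 7, against 20.7% of genes (18.5% of windows). Rela had neither. A match is a description of the sequence and not evidence of binding.

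The 250 bases before the start are printed for Nfkbia, the member with the highest level per length, and for Tnf, the member with the largest difference. In Nfkbia (chr12:55492648-55492897, minus strand) the capitals mark the consensus match nearest the start and 2 further matches to the shorter motif.
Nfkbia: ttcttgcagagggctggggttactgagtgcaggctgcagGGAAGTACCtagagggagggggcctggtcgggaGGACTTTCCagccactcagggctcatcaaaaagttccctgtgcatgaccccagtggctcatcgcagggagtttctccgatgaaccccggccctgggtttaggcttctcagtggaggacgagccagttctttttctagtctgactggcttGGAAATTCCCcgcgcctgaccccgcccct
In Tnf (chr17:35202008-35202257, minus strand) the capitals mark its only match, to the shorter motif.
Tnf: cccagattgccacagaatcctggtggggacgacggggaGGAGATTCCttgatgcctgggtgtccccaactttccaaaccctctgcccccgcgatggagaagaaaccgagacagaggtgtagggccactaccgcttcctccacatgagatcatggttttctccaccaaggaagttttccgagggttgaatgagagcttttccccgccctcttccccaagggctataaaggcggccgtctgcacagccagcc

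**Figure D1:**
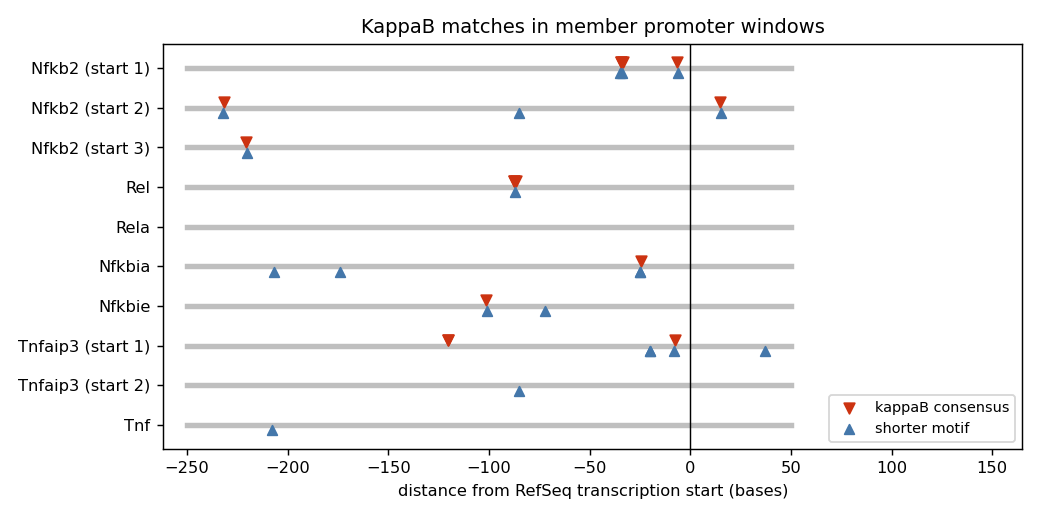
Positions of κB matches in the promoter windows of the 7 genes with a window, 1 line per transcription start. The x axis is the distance from the start in bases, red marks are the κB consensus and blue marks GGNNNTTCC. Nfkbia has its consensus match at -29 to -20 and matches to the shorter motif farther out, the first start of Tnfaip3 has consensus matches at -12 to -3 and -125 to -116, the one match of Tnf lies at -212 to -204, and Rela has none.

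With libraries scaled by TMM, the inhibitors and regulators, Rel and Tnf were higher in the libraries labelled SYK KO. No difference was called for the other 4 subunits. The direction depends on the scaling, since relative to macrophage markers 0 members were higher and 6 were lower, as were 14228 of 16451 genes tested. Of the 10 genes, 6 were higher (Rel, Nfkbia, Nfkbie, Nfkbiz, Tnfaip3 and Tnf), 0 were lower and 4 did not pass the test (edgeR's quasi-likelihood test, adjusted p under 0.05). The count of lower members was also 0 at an unadjusted p under 0.05 and by DESeq2's Wald test. Of all 16451 genes tested, 22.7% were higher and 16.7% lower (39.4% in either direction). The median log2 fold change was 1.24 over the 10 genes and 0.02 over all genes. Both libraries labelled SYK KO were above both SYK WT libraries for 8 of the 10 genes, as were 38.0% of all genes tested.

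**Figure D2:**
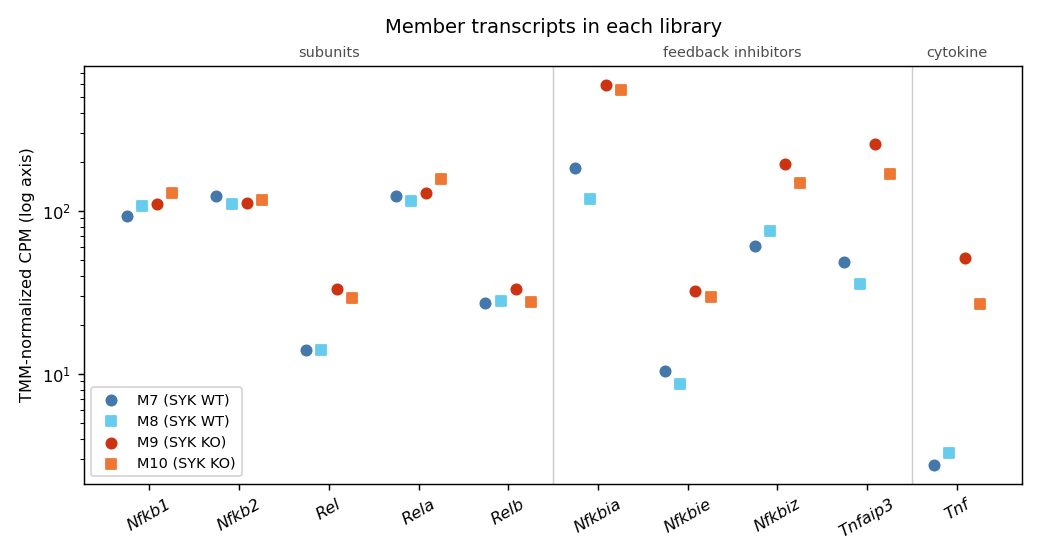
TMM-normalized CPM of the 10 genes in each of the 4 libraries (log axis), with 2 libraries per genotype. The libraries labelled SYK KO lie above both SYK WT libraries for all genes but Nfkb2 and Relb, at this scaling; relative to macrophage markers only Tnf is above 0 in log2 fold change.

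The subunits carry the DNA-binding Rel homology domain. Rela (p65) and Rel (c-Rel) also have transactivation domains and are the activating partners of p50, which is made from Nfkb1. Nfkb1 (ENSMUSG00000028163, chr3:135584655-135691547) was at 93.6 and 106 CPM in SYK WT and at 110 and 128 CPM in the libraries labelled SYK KO. Rela (ENSMUSG00000024927, chr19:5637483-5648130) was at 124 and 114 CPM and at 128 and 158 CPM in the same order. For both genes the groups did not overlap, but the difference was small. The log2 fold change of Nfkb1 was 0.25 (95% interval -0.15 to 0.65, adjusted p = 0.267). That of Rela was 0.26 (-0.16 to 0.68, adjusted p = 0.270).

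Nfkb2 and Relb encode the pair of the noncanonical branch, p52 (processed from p100) and RelB. Nfkb2 (ENSMUSG00000025225, chr19:46304320-46312385) was at 123 and 110 CPM in SYK WT and at 111 and 117 CPM in the libraries labelled SYK KO, with groups that overlap. Its log2 fold change was -0.03 (-0.40 to 0.34, adjusted p = 0.883). Exons of Nfkb2 overlap those of Psd and AC114539.1 on the other strand, and without a stated strand setting their reads may not be told apart. Relb (ENSMUSG00000002983, chr7:19606217-19629438) was at 27.1 and 27.9 CPM against 33.3 and 27.7 CPM, which also overlap. Its log2 fold change was 0.15 (-0.27 to 0.57, adjusted p = 0.522).

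Rel was the one subunit that was higher. It was at 14 CPM in both SYK WT libraries and at 33.2 and 29.2 CPM in the libraries labelled SYK KO (ENSMUSG00000020275, chr11:23736847-23770970). These groups lie well apart, and the spread within each is small. This was a log2 fold change of 1.16 (SE 0.182, adjusted p = 0.00499), a fold of 2.23. Scaled by library size alone it was 0.63 and missed the threshold (adjusted p = 0.0556). By edgeR Rel was lower relative to macrophage markers (-1.61, adjusted p = 0.00414) and to pan-leukocyte genes (-2.01, adjusted p = 0.00038).

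All 4 inhibitors and regulators were higher with TMM scaling and all 4 had log2 fold changes below 0 relative to macrophage markers. Nfkbia encodes IκBα, which holds the dimers in the cytoplasm and removes them from DNA, and is induced by NF-κB itself. The gene (ENSMUSG00000021025) lies at chr12:55489410-55492647 and was at 183 and 118 CPM in SYK WT and at 594 and 549 CPM in the libraries labelled SYK KO. The lowest library labelled SYK KO was above both SYK WT libraries by a wide margin, and the SYK WT libraries differed more from each other than the other pair. The log2 fold change was 1.92 (SE 0.251, adjusted p = 0.00280), a fold of 3.79.

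Nfkbie encodes IκBε, a second cytoplasmic inhibitor (ENSMUSG00000023947, chr17:45555703-45563169). Its levels were 10.4 and 8.71 CPM against 32.1 and 29.7 CPM. The groups were well separated with close replicates, a log2 fold change of 1.69 (SE 0.201, adjusted p = 0.00213). Nfkbiz encodes IκBζ, a nuclear IκB protein that acts on secondary response genes (ENSMUSG00000035356, chr16:55811375-55838899). It was at 60.8 and 75.2 CPM against 195 and 148 CPM, with a log2 fold change of 1.33 (SE 0.206, adjusted p = 0.00475).

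Tnfaip3 encodes A20, a ubiquitin-editing enzyme that ends signalling to IKK (ENSMUSG00000019850, chr10:19000910-19015657). It was at 48.5 and 35.3 CPM in SYK WT and at 257 and 168 CPM in the libraries labelled SYK KO. M9 was well above M10, but the groups do not overlap. This gave a log2 fold change of 2.34 (SE 0.272, adjusted p = 0.00203), a fold of 5.06.

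Tnf encodes the cytokine TNF, which both activates NF-κB and is a target of it (ENSMUSG00000024401, chr17:35199381-35202007). The counts were 76 and 80 in SYK WT and 1054 and 491 in the libraries labelled SYK KO, or 2.77 and 3.26 CPM against 51.2 and 26.8 CPM. The SYK WT libraries were close to each other, while M9 was far above M10, and the groups do not overlap. The log2 fold change was 3.69 (SE 0.364, 95% interval 2.81 to 4.57, adjusted p = 0.00135), a fold of 12.9 and the largest of the 10 genes at this scaling. Without M9 the log2 fold change was 3.06 and without M10 it was 4.10, so the size of the difference rests in part on M9.

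The scaling of the libraries moved all of these values together. With library size alone, the median log2 fold change of all genes was -0.52 and 5 members were higher and 1 lower (Nfkb2, -0.57, adjusted p = 0.0412). When libraries were scaled to the geometric mean of the 10 macrophage markers, the median of all genes was -2.72, 0 members were higher (also at an unadjusted p under 0.05) and 6 were lower (the 5 subunits and Nfkbiz) by edgeR. In that scaling edgeR gave 133 genes higher and 14228 lower in all, so the share of called genes that were higher was 0.926%, against 57.6% with TMM and 23.7% with library size alone. Tnf alone of the 10 genes then had a log2 fold change above 0, 0.83 (adjusted p = 0.190), and the values of Tnfaip3 and Nfkbia were -0.43 (adjusted p = 0.434) and -0.78 (adjusted p = 0.167). Scaled to 6 pan-leukocyte genes, Tnf was at 0.47 (adjusted p = 0.275) and the other 9 were lower.

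A change of scaling shifts all genes of a library together. Distances from the median of all genes therefore moved little by construction, and they do not show that a direction holds. Measured from the median of all genes, Tnf was at 3.68 with TMM, 3.70 with library size, 3.55 with macrophage markers and 3.59 with leukocyte genes. Tnfaip3 was at 2.32, 2.34, 2.29 and 2.28 in the same order, and Rel at 1.14, 1.14, 1.11 and 1.12. Nfkb2 was between -0.05 and -0.04 in all 4.

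**Figure D3:**
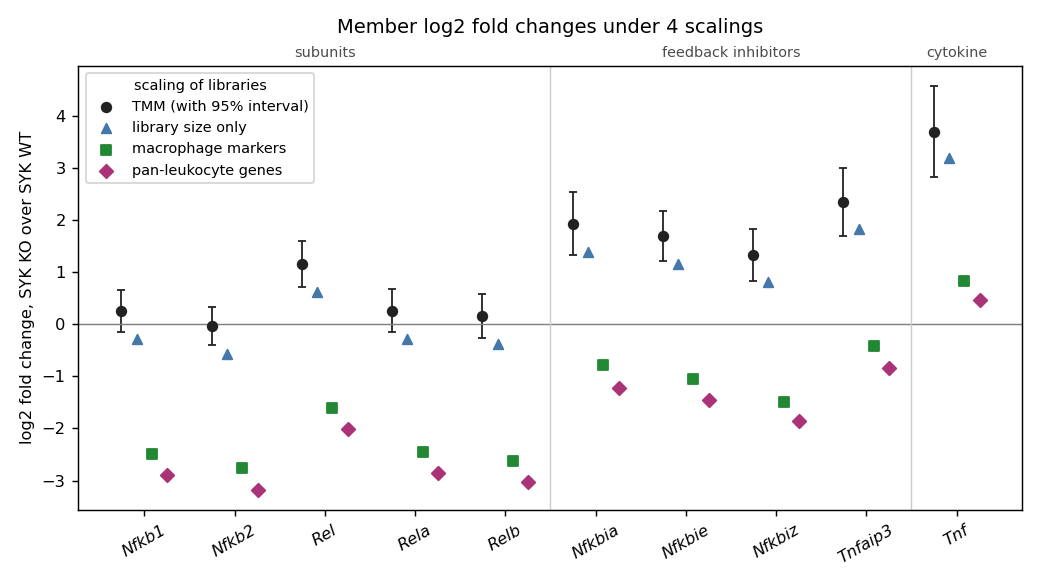
Log2 fold changes of the 10 genes, libraries labelled SYK KO over SYK WT, under 4 scalings of the libraries, with the 95% interval of the edgeR fit for TMM. With TMM the intervals of Rel, the 4 inhibitors and regulators and Tnf lie above 0, and with macrophage markers only Tnf (0.83) is above 0.

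A ratio of counts of 2 genes within a library does not depend on the scaling, so each member was also set against Rela. It does depend on the reference chosen. Against macrophage markers in place of Rela, only Tnf was higher in the libraries labelled SYK KO (difference 0.87). The other members were lower, among them Nfkbia (-0.80), Tnfaip3 (-0.43), Nfkbie (-1.06), Nfkbiz (-1.43) and Rel (-1.60). The log2 ratio of Nfkbia to Rela was 0.56 and 0.05 in SYK WT and 2.21 and 1.80 in the libraries labelled SYK KO, a difference of 1.70. That of Tnfaip3 was -1.36 and -1.70 against 1.0 and 0.09, a difference of 2.07. Tnf went from -5.49 and -5.13 to -1.32 and -2.56, a difference of 3.37 (2.75 without M9 and 3.99 without M10). In these 3 genes both libraries labelled SYK KO were above both SYK WT libraries, and so were those of Nfkbie (difference 1.44), Nfkbiz (1.07) and Rel (0.90). The share of all genes whose ratio to Rela separates the groups in this way is not given here. Nfkb2 was below Rela by more in the libraries labelled SYK KO (-0.21 and -0.43 against -0.01 and -0.05, a difference of -0.28). The ratios of Nfkb1 (difference -0.0027) and Relb (-0.11) overlapped between the groups. Within the loop of inhibitor and subunit, the ratio of Nfkbia to Nfkb1 was 0.97 and 0.16 in SYK WT and 2.44 and 2.10 in the libraries labelled SYK KO. With 2 libraries on each side, the smallest p that exact permutation allows (two-sided) is 0.333, and each ratio whose groups did not overlap had that p.

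**Figure D4:**
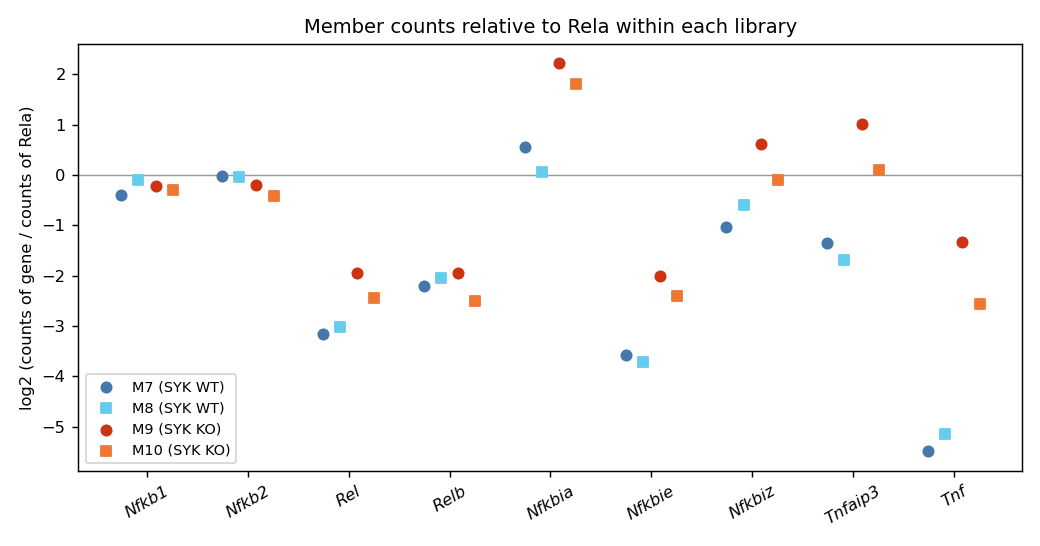
Log2 ratio of the counts of each gene to those of Rela in the same library, 1 point per library. M9 and M10 are above M7 and M8 for Rel, the 4 inhibitors and regulators and Tnf. They are below them for Nfkb2 and overlap with them for Nfkb1 and Relb. Against macrophage markers in place of Rela, only Tnf was higher (difference 0.87).

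Levels of different genes were compared per kilobase of summed exon length. In SYK WT the order was Nfkbia (93.6 CPM per kilobase), Rela (38.8), Nfkb2 (25.5), Nfkbiz (13.6), Nfkb1 (8.29), Relb (7.07), Tnfaip3 (5.80), Nfkbie (3.14), Rel (1.88) and Tnf (1.84). Of these neighbours, only the ranges of Rel and Tnf overlapped. In the libraries labelled SYK KO, Nfkbia (355 CPM per kilobase) and Rela (46.5) were again first. Nfkbiz (34.1), Tnfaip3 (29.4), Nfkb2 (24.9) and Tnf (23.8) followed, each overlapping with its neighbour in that run. Nfkbie (10.1) and Nfkb1 (9.87), which also overlapped, came before Relb (7.85) and Rel (4.18). Tnf thus stood at place 10 in SYK WT and at place 6 in the libraries labelled SYK KO. For Nfkb1 the summed exons (12061 bases) are far longer than its longest transcript (4149 bases). The order rests on the length used: with coding length, 6 members kept their place in SYK WT and 3 in the libraries labelled SYK KO.

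Around these members, 61 other genes of the pathway were counted by role, in lists assembled by name with earlier results of these data known. Levels are given as the mean of the 2 libraries of a label. With TMM scaling 40 of the 61 genes were higher and 5 lower (median 0.96 on the log2 scale), while relative to macrophage markers 2 were higher and 37 lower. Over all genes tested 22.7% were higher and 16.7% lower with TMM. Relative to macrophage markers, 133 of the 16451 genes tested were higher and 14228 lower, so lower calls were common among genes at large. The counts below are for TMM, each followed by the count relative to macrophage markers.

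The other IκB genes were all higher (3 of 3, median 1.73), against 0 higher and 1 lower relative to macrophage markers. Nfkbib, which encodes IκBβ, averaged 13.8 CPM (SD 2.03) in SYK WT and 32.4 CPM (SD 1.43) in the libraries labelled SYK KO, and its log2 difference was 1.23. Nfkbid, which encodes a nuclear IκB, was higher by 2.88 on the log2 scale. Of the 10 IKK and upstream kinase genes, 1 was higher and 2 were lower (median -0.26), and all 10 were lower relative to macrophage markers. Chuk, the IKKα kinase, averaged 62.7 CPM (SD 5.96) and 33.3 CPM (SD 0.411), a log2 difference of -0.92, and Ikbkb, the IKKβ kinase, was higher by 0.72. Tab2, an adaptor of the TAK1 kinase, had the highest level in that list and a log2 fold change of -0.03 (adjusted p = 0.898).

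Of the 9 genes of TNF receptor signalling, 6 were higher and 1 was lower (median 0.96), against 0 higher and 7 lower relative to macrophage markers. Tnfrsf1b, which encodes TNF receptor 2, averaged 31.4 CPM (SD 5.51) in SYK WT and 174 CPM (SD 52.9) in the libraries labelled SYK KO, and its log2 difference was 2.47. Tnfrsf1a, which encodes TNF receptor 1, was higher by 0.79. Birc2, which encodes the ubiquitin ligase cIAP1, was lower (-1.04). Of the 6 genes of noncanonical receptors and Traf3, 4 were higher and 1 was lower (median 1.26), against 0 and 3 relative to macrophage markers. Cd40, a receptor of antigen-presenting cells, was higher by 3.27 and Ltbr, the lymphotoxin receptor, by 0.77, and Tnfrsf12a, the TWEAK receptor, was lower (-1.64). The calls of Ikbkb, Tnfrsf1a and Ltbr were lost without M7 and without M8, and those of Nfkbib, Chuk and Birc2 without M8.

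The 3 genes of the linear ubiquitin ligase had a median of -0.06 (all 3 were lower relative to macrophage markers), with Sharpin higher (0.56, adjusted p = 0.0336) and Rbck1 at -0.06 (adjusted p = 0.765). The 4 genes of the CARD9-BCL10-MALT1 module, which joins receptors that signal through Syk to IKK, were all higher (median 1.34), against 1 higher and 2 lower relative to macrophage markers. Bcl10, the adaptor of the module, was its most abundant gene (0.59, adjusted p = 0.0456). The calls of Sharpin and Bcl10 were lost under several alternatives (DESeq2's Wald test among them). Of 10 other negative regulators, 6 were higher and 1 was lower (median 0.83), against 0 higher and 6 lower relative to macrophage markers. Zfp36, which destabilizes Tnf mRNA, averaged 82.5 CPM (SD 20.3) in SYK WT and 796 CPM (SD 129) in the libraries labelled SYK KO, a log2 difference of 3.27. Tnip3, which encodes a partner of A20, was higher by 3.74, and Otud7b, a deubiquitinase that acts on TRAF3, was lower (-1.02). Without M7 Cd40 was at 3.94 and Tnip3 at 4.37.

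Textbook targets of NF-κB were higher in 15 of 16 genes (median 2.53), against 1 higher and 5 lower relative to macrophage markers. The chemokine Cxcl2 averaged 79.2 CPM (SD 12.1) in SYK WT and 1065 CPM (SD 475) in the libraries labelled SYK KO, a log2 difference of 3.75, and Cxcl3 was higher by 4.24. Without M9 these were 3.12 and 3.37. The remaining gene, Ptgs2, did not pass the test (0.66, adjusted p = 0.132). The κB consensus was in the promoter windows of 7 of the 13 target genes that have one, against 9.55% of the 27025 genes with a window. Nfkbia, Nfkbie and Tnfaip3, the inhibitors with a window, had it in 3 of 3. Both counts come from genes listed for their place in the pathway and do not bear on these libraries.

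**Figure D5:**
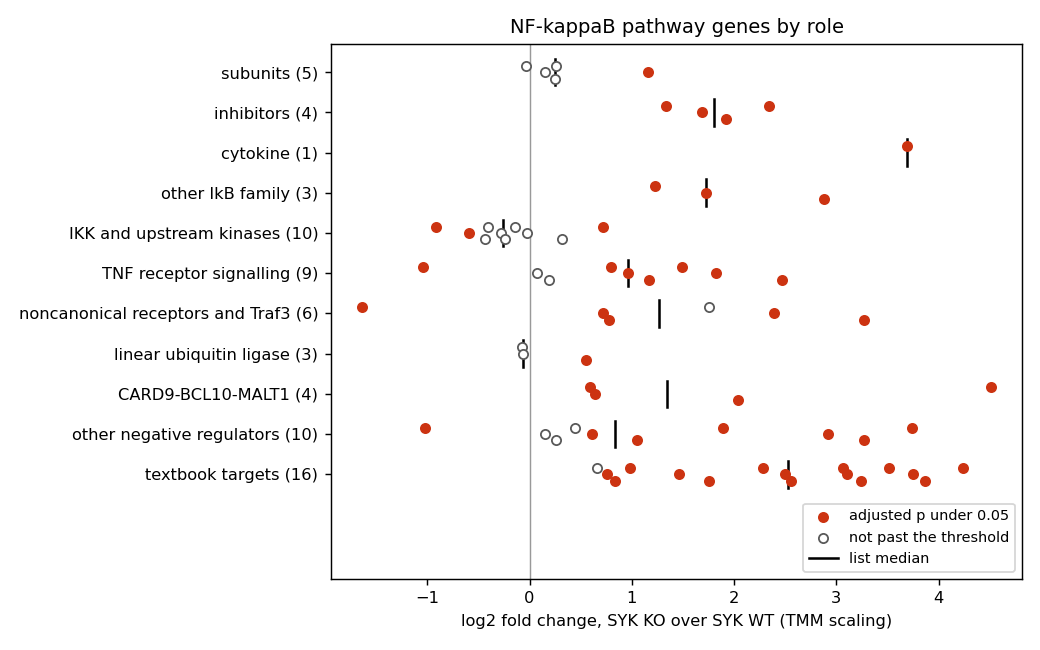
Log2 fold change of the 10 members and the 61 other pathway genes by list (TMM scaling), filled where adjusted p was under 0.05, with the list median as a bar. Textbook targets lie to the right of 0 and IKK and upstream kinases mostly to its left. Relative to macrophage markers 37 of the 61 other genes were lower, as were 14228 of the 16451 genes tested.

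The gene whose pattern over the 4 libraries was most like that of Tnf was Nlrp3, the inflammasome sensor, among 14149 genes compared (root mean square difference of centred log2 CPM 0.0218). Cxcl2 (0.0416) and Il1b (0.110) came next. Nlrp3 was at 6.31 and 7.37 CPM in SYK WT and at 116 and 62.9 CPM in the libraries labelled SYK KO. M9 was far above M10 as for Tnf, which follows from choosing Nlrp3 by its likeness to Tnf. The macrophage markers also summed to more in M9 (10398 CPM) than in M10 (6346 CPM). Il1b was at 23.5 and 28.2 CPM against 479 and 276 CPM.

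Genes of other cells and of handling moved with these results, and their part was not tested. Of all genes tested, 22.7% were higher and 16.7% lower with TMM. All 6 pan-leukocyte genes and all 6 neutrophil markers were higher, the neutrophil markers with summed levels of 29.5 to 42.7 CPM in SYK WT and 232 to 464 CPM in the libraries labelled SYK KO. Of the T cell markers 4 of 6 and of the dendritic cell markers 4 of 6 were higher, with summed levels of 4.68 to 6.12 against 11.5 to 14.7 CPM and of 14.8 to 19.7 against 199 to 205 CPM. Most of the dendritic cell sum in the libraries labelled SYK KO came from 1 marker, at 164 and 171 CPM. Among the 6 dendritic cell markers, 1 had a log2 fold change below 0. The endothelial markers were lower in 3 of 8, with sums of 199 to 200.2 CPM against 139 to 152 CPM. Of 5 B cell markers 4 were tested and 1 was higher, with summed levels of 1.59 to 1.82 CPM against 9.08 to 9.59 CPM. Of 8 neuroblastoma markers 4 were tested, of which 2 were higher and 0 lower with TMM (0 higher and 2 lower relative to macrophage markers), with summed levels of 285 to 323 CPM against 211 to 333 CPM. Most of that sum was Hand2, at 262 and 301 CPM in SYK WT and 178 and 286 CPM in the libraries labelled SYK KO. Hand2 was the only 1 of the 4 with a log2 fold change below 0 with TMM (-0.28), and the other 3 were above 0. Th and Dbh were at 0 in all 4 libraries. Of 8 immediate early genes 3 were higher and 1 was lower (median 0.16), and Hspa1a and Hspa1b, heat shock genes, were both higher, with a summed level of 64.5 to 82.2 CPM against 580 to 894 CPM. Relative to macrophage markers, 0 of these 10 genes were higher and 8 lower, and 0 of the 8 endothelial markers were higher and 8 lower. In that scaling 14228 of the 16451 genes tested were lower.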

How the data were processed

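Bulk RNA (polyA-selected, 2 libraries per genotype label) was analysed. The authors mapped reads to mm10 and deposited unnormalized integer counts, 1 value per Ensembl gene and library. The submitters' processing notes name STAR 2.6.1d, Salmon 1.4.0, SAMtools 1.9 and Picard 2.26. How whole-number counts were made and whether strand was used are not given in the sources used here. The study's methods describe other sequencing (single reads, triplicate) than the labels. Counts were filtered with filterByExpr, scaled by TMM (factors 1.22, 1.19, 0.876 and 0.787 for M7 to M10) and compared by edgeR 4.0.16 (quasi-likelihood, not robust) in R 4.3.3, with Benjamini-Hochberg adjustment over 16451 genes and a threshold of 0.05. SE was the log2 fold change over the root of F. Counts of libraries of one label differed beyond sampling noise (chi-square per degree of freedom 50.6 and 168). Nothing says that libraries came from separate mice, so p-values measure the spread between these libraries, which may be technical. Positions and lengths came from GENCODE M21 (GRCm38), which matched 54495 of 54532 genes. The fitting scripts were tested on simulated data with as many genes raised as lowered, which does not test the choice of scaling.

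The members and gene lists were chosen with earlier results of these data known. Named were the members, Syk, the most abundant and the most changed gene of each pathway list, pathway genes called against the direction of their list, and the 3 genes most like Tnf among those of at least 1 CPM. Some genes that this rule or a marker list names are not reported here. Members of a list named beyond this rule (Ptgs2, Hspa1a, Hspa1b, Hand2, Th and Dbh, and the markers given as examples) were chosen after their values were seen. Alternatives were DESeq2 size factors, library size alone, scaling to 10 macrophage markers or 6 pan-leukocyte genes, removal of mitochondrial and 4 rRNA-like genes, 2 other filters, DESeq2 1.42.0 (Wald test) and leaving out each library.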

Additional observations from a re-analysis of the deposited data

How the results depend on the processing

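The 6 members higher with TMM were all higher with DESeq2 size factors, without mitochondrial and rRNA-like genes, with both other filters, with DESeq2's Wald test and with each library left out (6 to 6 higher, 0 to 0 lower). Precision is limited by 2 libraries per label. A lone library left in a group was assumed to vary like the other group. No paired analysis was possible because the labels give the groups no replicate number in common. With library size alone, 1 member was lower and Rel missed the threshold, and Nfkb1, Rela and Relb changed sign (-0.29, -0.28 and -0.38). With this scaling 27 pathway genes were higher and 10 lower, the calls of Ikbkb, Tnfrsf1a, Ltbr, Sharpin and Bcl10 were lost (adjusted p 0.363 to 0.935), Tab2 (-0.56, adjusted p = 0.0448) and Rbck1 (-0.60, adjusted p = 0.0274) were lower, and 1677 genes were higher and 5411 lower in all. With macrophage markers, 0 members were higher and 6 lower, 2 pathway genes higher and 37 lower, and 133 genes higher and 14228 lower. The values that changed sign were -2.49 (Nfkb1), -1.61 (Rel), -2.44 (Rela), -2.63 (Relb), -0.78 (Nfkbia), -1.04 (Nfkbie), -1.49 (Nfkbiz), -0.43 (Tnfaip3), -1.5 (Nfkbib), -1.98 (Ikbkb), -2.0 (Tnfrsf1a), -0.31 (Tnfrsf1b), -2.0 (Ltbr), -2.18 (Sharpin) and -2.18 (Bcl10). With pan-leukocyte genes, 0 members were higher and 9 lower, 1 pathway gene higher and 42 lower, and 104 genes higher and 14789 lower. The values that changed sign were -2.88 (Nfkb1), -2.01 (Rel), -2.86 (Rela), -3.02 (Relb), -1.22 (Nfkbia), -1.46 (Nfkbie), -1.86 (Nfkbiz), -0.84 (Tnfaip3), -0.36 (Syk), -1.92 (Nfkbib), -0.32 (Nfkbid), -2.40 (Ikbkb), -2.39 (Tnfrsf1a), -0.71 (Tnfrsf1b), -2.40 (Ltbr), -2.59 (Sharpin) and -2.58 (Bcl10). The scalings move all genes of a library together by construction. With each library left out, 25 (without M8) to 43 pathway genes were higher and 2 (without M8) to 8 (without M9) lower, and 1478 to 5010 genes were higher and 807 to 4745 lower in all. The counts of all genes without M7 were 2094 higher and 1226 lower, without M8 1478 and 807, without M9 4330 and 4498, and without M10 5010 and 4745. The log2 fold change of Nfkb2 was then -0.12 to 0.045 (without M7), of Relb -0.073 (without M9) to 0.29 and of Tab2 -0.13 to 0.0069 (without M7), with 0.0029 without M10. Without M8 the calls of Chuk, Birc2, Nfkbib, Ikbkb, Tnfrsf1a, Ltbr, Sharpin and Bcl10 were lost. The ratio of Nfkb1 to Rela differed by -0.15 to 0.15 and of Relb to Rela by -0.39 to 0.17 with each library left out. Set against macrophage markers in place of Rela, the differences were -2.50 (Nfkb1), -2.78 (Nfkb2), -1.60 (Rel), -2.61 (Relb), -0.80 (Nfkbia), -1.06 (Nfkbie), -1.43 (Nfkbiz), -0.43 (Tnfaip3) and 0.87 (Tnf). With coding length, 6 and 3 members kept their place in SYK WT and in the libraries labelled SYK KO. The cause of these changes was not tested. Over all alternatives the adjusted p of Tnf ran from 3.04e-32 to 0.275.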
